A study of Oryza sativa with 46 samples.

Results

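The comparison concerned the rice arrays titled Banikat and Nipponbare at 120 mM NaCl, 6 of the 46 arrays of the series, with 3 arrays for each title. The 6 arrays were taken by their titles. Banikat and Nipponbare are japonica cultivars of Oryza sativa that the study classed as moderately tolerant and susceptible to salt. By the labels, all 6 seedlings were 16 days old after emergence and had been held for 48 h in nutrient solution with 120 mM NaCl and added CaCl2, with a weaker salt solution on the first day. The seedlings labelled 0 mM, used here for reference, had the same age and the same solution without salt. Every array held the RNA of 1 individual whole seedling, roots and shoot together, with sections of root, stem and leaf taken from the larger ones, so the spread between arrays is the spread between single seedlings. The remaining arrays came from 4 other cultivars and 2 wild species under the same 2 treatments.

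Sodium that enters with the transpiration stream is toxic to leaf cells. Rice limits it with transporters of the HKT family, some of which take sodium back out of the xylem, and with sodium/proton exchangers, which load it into vacuoles. Water deficit that comes with salt raises abscisic acid, and this hormone switches on genes of dehydrins and other late embryogenesis abundant (LEA) proteins, which are hydrophilic and accumulate in drying cells. Dehydrin and LEA transcripts are therefore widely used as markers of osmotic stress in rice. A second source of signal differences on an oligonucleotide array is the sequence of the plant itself, since a short probe hybridises weakly to a transcript that differs from it. The array headers name the IRGSP genome build, which is the genome of Nipponbare.

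The titles were first set against the data, and the data went against them. For this, every array's signals, centred on each probe's median, were correlated across probes with the average of each genotype's remaining arrays. In Banikat-labelled arrays at 120 mM, replicates 1 and 2 lay nearest to the other Banikat-labelled arrays (r = 0.716 and 0.745), but replicate 3 had r = 0.0973 with them and r = 0.481 with Nipponbare-labelled arrays. In Nipponbare-labelled arrays at 120 mM, replicates 1 and 2 lay nearest to their own label (r = 0.327 and 0.23), but replicate 3 had r = -0.0624 with it and r = 0.843 with Banikat-labelled arrays. Both replicate 3 arrays therefore stood with the opposite title. The genotype titles of the replicate 3 arrays at 0 mM were not borne out either, with r = 0.0361 for the array labelled Banikat, which lay nearest to Nipponbare-labelled arrays (r = 0.424). The one labelled Nipponbare had r = -0.0891 with its own label and r = 0.0173 with Banikat-labelled arrays, and lay nearest to IR 58 (r = 0.419), so it stood with neither title. These correlations describe the arrays and share the same probes, so no test was made of them.

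The treatment titles were checked with a list of 8 loci of dehydrins, LEA proteins and a jacalin-related lectin. Os11g0454300, a dehydrin, had log2 signals of 6.27, 7.58 and 15.67 in Banikat-labelled arrays at 120 mM (replicates 1, 2 and 3), against 16.21, 17.71 and 7.52 in Banikat-labelled arrays at 0 mM. The same probe had 13.52, 7.06 and 14.87 in Nipponbare-labelled arrays at 120 mM, against 17.53, 17.24 and 6.45 in Nipponbare-labelled arrays at 0 mM. Replicates 1 and 2 were thus higher in the arrays labelled unstressed, and replicate 3 was higher in the arrays labelled salt-stressed. Os05g0542500, a group 3 LEA protein, followed the same order, with 4.55, 7.02 and 15.36 in Banikat-labelled arrays at 120 mM against 14.92, 17.11 and 7.66 in those at 0 mM. In replicates 1 and 2 of both titles, 0 of the 8 loci were higher at 120 mM than at 0 mM, with median differences, 120 minus 0 mM, of -5.31 and -9.52 on the log2 scale for Banikat-labelled arrays and -3.62 and -8.96 for Nipponbare-labelled arrays. In replicate 3, all 8 were higher at 120 mM, with medians of 7.93 and 5.72 for Banikat-labelled and Nipponbare-labelled arrays.

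The other 6 genotypes gave 15 pairs of arrays that share a replicate number and a slide and have both treatments. Replicate 2 of BRRI dhan 29 was left out, since its arrays lay on different slides. In 10 of these pairs all 8 loci were higher at 120 mM, in 4 pairs 6 or 7 were, and the median difference was above 0 in 14 pairs. The exception was replicate 3 of PSBRc50, with a median of -1.78. Of these pairs 3 held an array nearest to another genotype than its title, namely this one, IR 58 replicate 2 and O. latifolia replicate 2, and in 2 of them, the IR 58 and O. latifolia pairs, all 8 loci were higher at 120 mM. On the slides of replicates 1 and 2 the 4 arrays stood in the order Nipponbare 120 mM, Nipponbare 0 mM, Banikat 120 mM, Banikat 0 mM, and on the slide of replicate 3 in the reverse order of titles. By genotype and by the salt list, replicate 3 stood apart from replicates 1 and 2 under the same titles. Which of them carries the right titles cannot be told with these files, and how this came about was not tested. Every direction below, including each one for salt, is therefore one between arrays as labelled. The results lead with replicates 1 and 2. Replicate 3 values are given beside the main comparison and for some named loci, not for the function lists or windows.

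**Figure D1:**
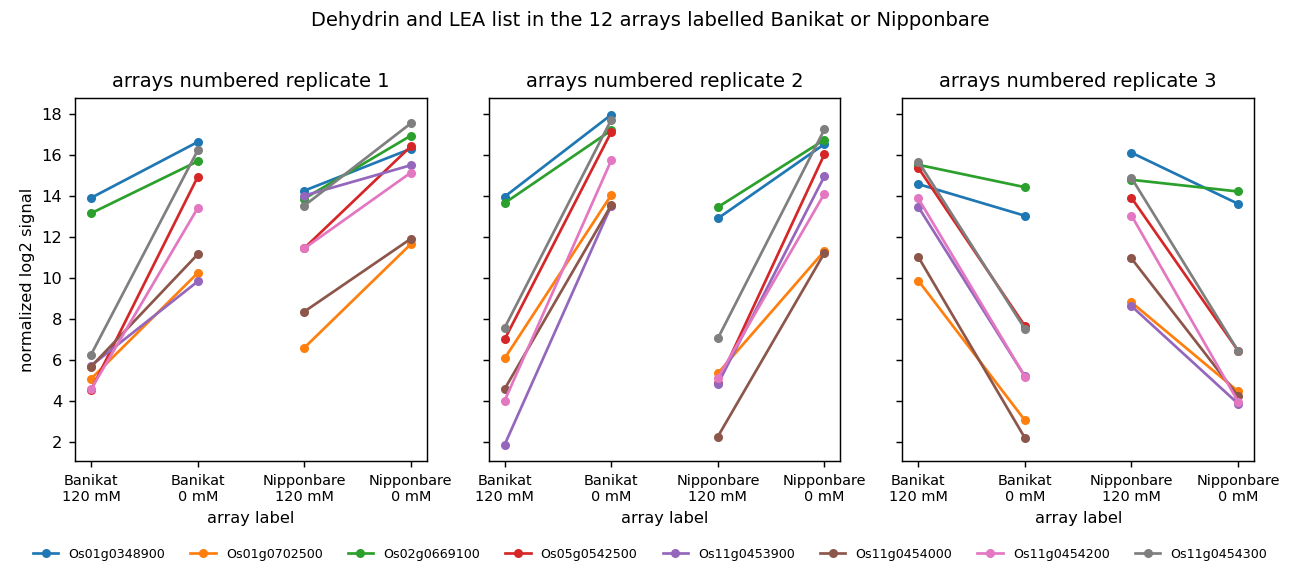
Normalized log2 signal (y axis) of the 8 loci of the dehydrin and LEA list in the 12 arrays labelled Banikat or Nipponbare, one panel per replicate number and one line per locus and title, joining the array labelled 120 mM to the one labelled 0 mM. All 8 lines slope up toward 0 mM for both titles in replicates 1 and 2, and all 8 slope down toward 0 mM for both titles in replicate 3.

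The arrays held 42477 probes for 29923 loci. A probe was counted as well above background by the scanner software's own test. In the arrays of replicates 1 and 2, both treatments included, 35404 to 36693 probes were well above background in Banikat-labelled arrays and 32705 to 34697 in Nipponbare-labelled arrays, so the 2 ranges did not overlap. Leaf and root transcripts were present under both titles, as whole-seedling RNA should have. All 13 leaf markers were well above background on each array of replicates 1 and 2 at 120 mM, with summed log2 signals of 21.03 to 21.2 in Banikat-labelled and 20.64 to 21.09 in Nipponbare-labelled arrays. Of 10 root markers, 8 and 9 were above background in Banikat-labelled and 7 and 8 in Nipponbare-labelled arrays, with sums of 15.23 to 15.78 and 15.29 to 16.08. No leaf or root marker passed the test between the titles. In whole-seedling RNA, fewer cells of a type and less RNA per cell cannot be told apart.

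In replicates 1 and 2 at 120 mM, Banikat-labelled seedlings differed from Nipponbare-labelled ones at 3158 of 42477 probes (7.43%; limma, Benjamini-Hochberg adjusted p under 0.05), 2242 higher (5.28%) and 916 lower (2.16%). The higher probes named 1863 loci and the lower probes 846. At an unadjusted p under 0.05 there were 6675 probes. Differences were large: 1608 of the probes called higher and 269 of those called lower differed by at least 3 on the log2 scale, and the medians were 4.27 and -2.29, against -0.18 for all probes. The replicate 1 and 2 arrays of the titles did not overlap at 3156 of the called probes, and at 55.5% of all probes. With scaling to the 75th percentile in place of quantile normalization, 81.9% of the called probes were higher, in place of 71%.

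**Figure D2:**
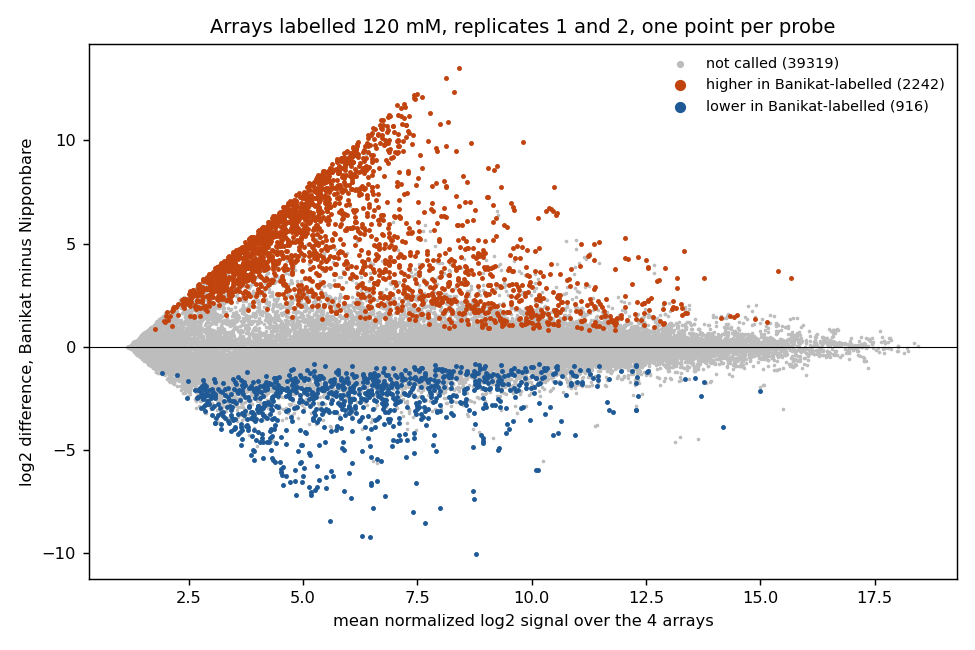
Difference in log2 signal between Banikat-labelled and Nipponbare-labelled arrays at 120 mM (replicates 1 and 2, y axis) against the mean log2 signal over these 4 arrays (x axis), one point per probe. The 2242 probes called higher reach further from 0 than the 916 called lower, and many lie along the upper edge, where the Nipponbare-labelled signal is at the floor of the array.

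Much of the upward difference was a difference between signal and no signal. Of the probes called higher, 1380 (61.6%) were well above background on both Banikat-labelled arrays and on neither Nipponbare-labelled array, and 688 were well above background on all 4. Of the probes called lower, 105 (11.5%) were on for Nipponbare-labelled arrays only and 702 were measured on all 4. Over all probes, called or not, 2483 were on for Banikat-labelled arrays only and 166 for Nipponbare-labelled arrays only, so the same imbalance held without the test. The on-only probes were then looked up in the arrays that had not been used to choose them. The 1380 probes were well above background at 4.64% in Banikat-labelled replicate 3 at 120 mM, against 97.6% in Nipponbare-labelled replicate 3. In the 30 arrays of the other genotypes that lay nearest their own label, 8.84% to 35.3% of the 1380 probes were detected. The 105 probes on for Nipponbare-labelled arrays only were detected at 69.5% in Banikat-labelled replicate 3, against 19% in Nipponbare-labelled replicate 3, and at 15.2% to 85.7% in those 30 arrays. Of all 42477 probes, those 30 arrays detected 20914 to 36287. The lowest values, 8.84%, 15.2% and 20914, were all of 1 array labelled O. latifolia, replicate 1 at 120 mM. Most of the 1380 probes were thus dark in those 30 arrays, while 1 array labelled PSBRc50, replicate 3 at 120 mM, detected 98.4% of them. The replicate 3 array labelled Nipponbare at 0 mM detected 19.3%.

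**Figure D3:**
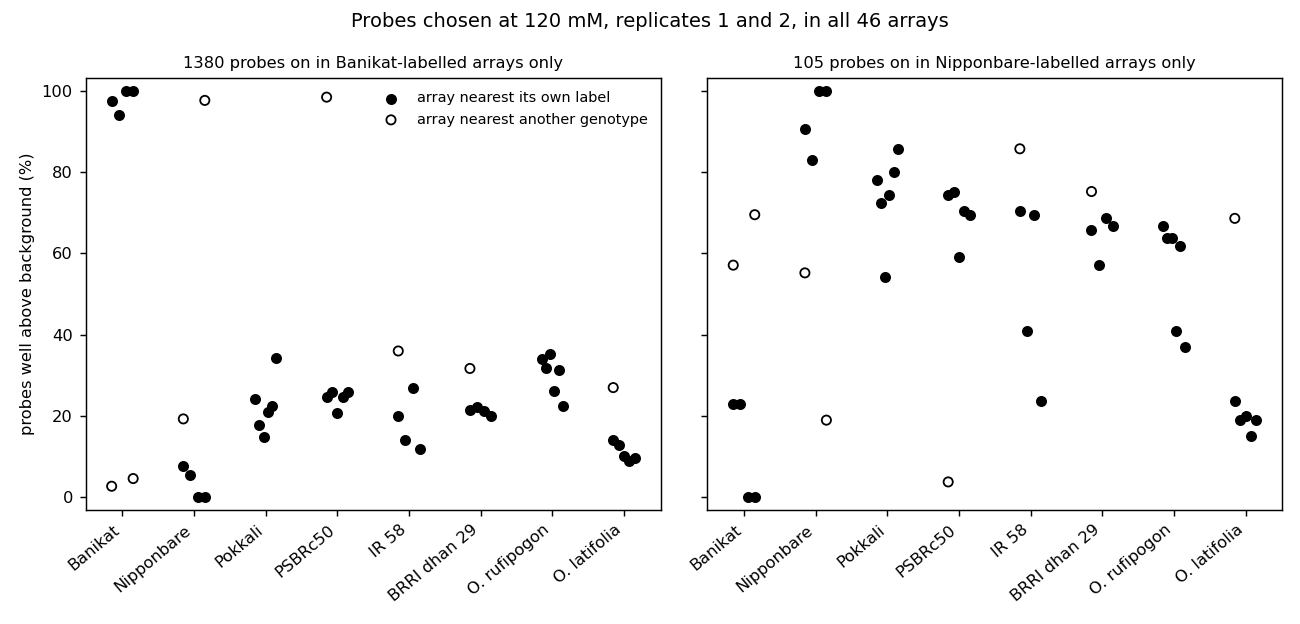
Share of probes well above background (y axis, percent) in each of the 46 arrays, grouped by title, for the 1380 probes on in Banikat-labelled arrays only (left) and the 105 on in Nipponbare-labelled arrays only (right), both chosen at 120 mM in replicates 1 and 2, whose 4 arrays are at 100% or 0% by choice. Open symbols are arrays nearest to another genotype than their title, and among these the replicate 3 array labelled Nipponbare at 120 mM stands at 97.6% in the left panel and the one labelled Banikat at 4.64%.

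Replicate 3 reversed the comparison. The difference between its 2 arrays at 120 mM had the opposite sign from the difference in replicates 1 and 2 at 97.8% of the called probes, against 73.4% of all probes. Its median was -3.99 over the probes called higher, where replicates 1 and 2 gave 4.26 and 4.31, and 1.75 over the probes called lower, where they gave -2.39 and -2.15. Across all probes the differences of replicates 1 and 2 correlated at 0.791, and those of replicate 3 with them at -0.777 and -0.787. With all 46 arrays fitted under their titles, 3 against 3, limma called 0 probes (317 at an unadjusted p under 0.05).

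The same titles at 0 mM gave much the same probes. In replicates 1 and 2, 4154 of 42476 probes were called there (9.78%), 2623 higher (6.18%) and 1531 lower (3.6%) in Banikat-labelled arrays. Of the 3158 probes called at 120 mM, 2341 (74.1%) were called in the same direction at 0 mM, which is 56.4% of the 0 mM calls, and 2 were called in opposite directions. The sign at 0 mM was the same at 97.8% of the probes called at 120 mM, against 72.5% of all probes. The arrays of the 2 treatments do not overlap between these comparisons, but they were hybridised on the same slides.

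**Figure D4:**
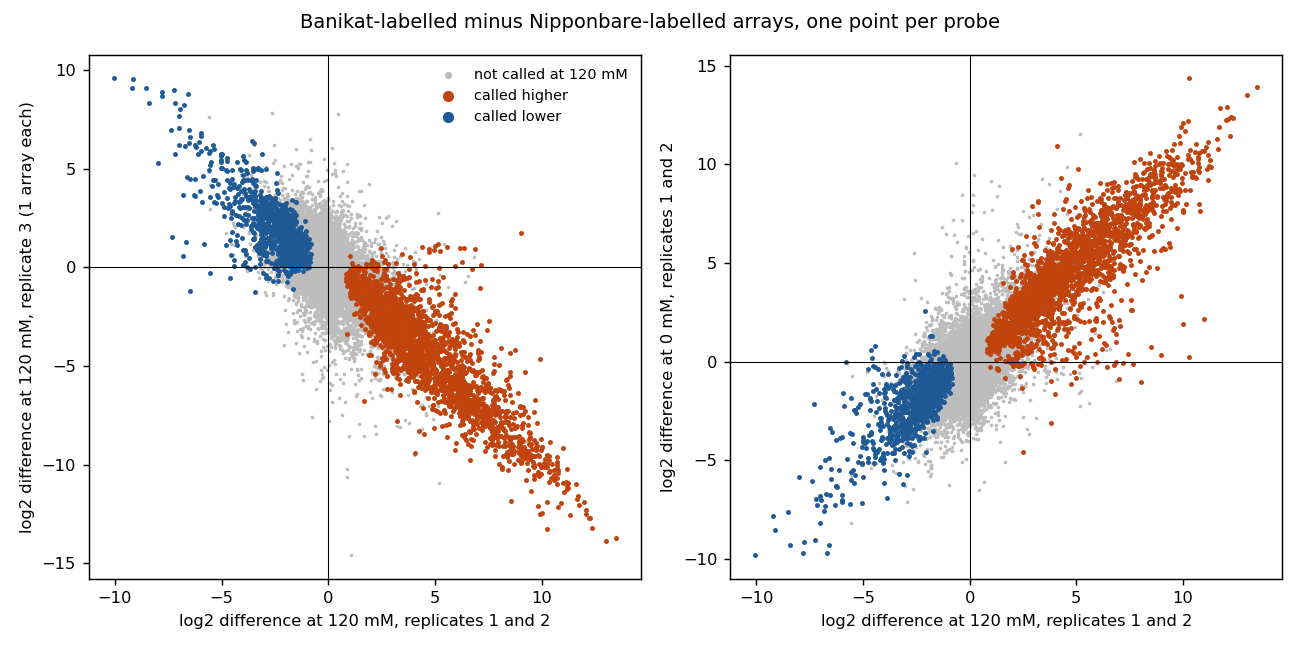
Difference in log2 signal, Banikat-labelled minus Nipponbare-labelled arrays, at 120 mM in replicates 1 and 2 (x axes) against the difference between the 2 arrays of replicate 3 at 120 mM (left) and the difference at 0 mM in replicates 1 and 2 (right), one point per probe. The called probes lie on a falling line in the left panel, where 97.8% changed sign, and on a rising line in the right panel, where 97.8% kept it.

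Product names were known only for 3769 loci, those for which the study's own tables, drawn up from these arrays, give an informative annotation. Among these, with the brightest probe standing for each locus, 6.08% were called higher and 2.6% lower, close to the 5.27% and 2.51% of all loci. Of the 28 loci named below for their size of difference, 14 in each direction, all 28 had the opposite sign in replicate 3 and 21 were also called in the same direction at 0 mM. Some replicate 3 differences were small, such as 1.12 for Os05g0381400. Os03g0365200 had 2.46 (Banikat-labelled) and 1.26 (Nipponbare-labelled) there, at the floor of the arrays, so its sign carries no weight.

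Among annotated loci with a probe measured on all 4 arrays, the largest higher difference was at Os06g0336200, a delta-tonoplast intrinsic protein, one of the aquaporins that let water across the vacuolar membrane. Its probe had 11.13 and 10.89 in Banikat-labelled arrays against 4.08 and 3.94 in Nipponbare-labelled arrays, a difference of 7 ± 1.25 (SE; limma adjusted p = 0.000315). It was the only one of 8 probes for this locus that was called. On the other 7 the titles differed by 0.35 to 0.46, with adjusted p of 0.874 to 0.907. Os11g0195600, an amino acid carrier, split in the same way, with 10.78 and 11.74 against 4.89 and 5.06 on one probe (6.29 ± 1.26, adjusted p = 0.00115) and a difference of 1.12 on the other (adjusted p = 0.3).

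At 3 further loci of this group both probes were called higher. Os01g0158900, with an NF-X1 type zinc finger, had 11.14 and 11.22 in Banikat-labelled arrays against 4.53 and 5.21 in Nipponbare-labelled arrays, and its probes differed by 6.31 and 2.5. Os06g0695500, peroxidase 16, of the enzymes that use hydrogen peroxide to oxidise cell wall and other compounds, had 9.56 and 10.93 against 3.58 and 4.45 (6.23 ± 1.18, adjusted p = 0.000591), and its other probe differed by 6.3. Os06g0147800, mitogen-activated protein kinase kinase 2, a middle step of a phosphorylation cascade, had 10.39 and 10.98 against 4.86 and 5.25 (5.63 ± 0.77), and its other probe was well above background in Banikat-labelled arrays only. Os01g0803200, oryzacystatin-I, an inhibitor of cysteine proteinases, was split. It had 10.72 and 11.11 against 4.75 and 5.14 (5.97 ± 0.7, adjusted p = 7.34e-07) and a second probe 8.34 higher, while its other 6 probes differed by 0.1 to 1.2 (adjusted p of 0.16 to 0.997).

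The remaining 2 loci of this group had a single probe each. Os01g0184100, a 17.5 kDa class II heat shock protein of the small chaperones that hold unfolding proteins in solution, had 12.52 and 12.15 in Banikat-labelled arrays against 6.35 and 5.86 in Nipponbare-labelled arrays, a difference of 6.23 ± 0.94 (adjusted p = 3.18e-05). At 0 mM its difference was 2.56 (adjusted p = 0.094), and the test of the difference between the treatments was not passed (adjusted p = 0.903). Os12g0409000, serine hydroxymethyltransferase, which makes glycine and serine interconvertible, had 10.68 and 10.41 against 4.17 and 4.8, a difference of 6.06 (adjusted p = 3.44e-05). None of the 8 loci in this group lost its call on leaving out 1 array of replicates 1 and 2.

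Among probes on in Banikat-labelled arrays only, Os01g0563000, an FKBP-type peptidylprolyl isomerase of the class of enzymes that help proteins fold, had 12.33 and 12.76 in Banikat-labelled arrays against 1.61 and 1.92 in Nipponbare-labelled arrays. The signal was at least 1220-fold higher (adjusted p = 4.18e-15). The bound takes, on each dark array, the higher of the probe's own signal and the array's lowest signal well above background. That lowest signal is an extreme of the array and some dark probes lie above it, so these bounds hold by this rule only. Of the 6 probes for this locus 5 were called higher, and the sixth, bright on all 4 arrays, differed by 2.64 (adjusted p = 0.277). In replicate 3 the same probe had 1.82 in the Banikat-labelled and 12.09 in the Nipponbare-labelled array.

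Os01g0942900 and Os01g0943800, both ankyrin repeat proteins, lie near each other on chromosome 1 by their locus numbers. Os01g0942900 had 12.63 and 12.62 in Banikat-labelled arrays against 1.81 and 1.98 in Nipponbare-labelled arrays, at least 1200-fold higher, and Os01g0943800 had 12.25 and 11.99 against 1.41 and 1.38, at least 911-fold higher. Os06g0170500, an RNA-binding protein, was at least 840-fold higher, with 12.02 and 11.99 against 1.41 and 1.4. All probes of these 3 loci were called higher.

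At other loci of the kind, probes disagreed. Os11g0660500, of the translationally controlled tumor protein family, had one probe at 11.77 and 11.84 in Banikat-labelled arrays against 1.48 and 1.48 in Nipponbare-labelled arrays (at least 729-fold higher). Its other probe had 16.46 and 16.7 against 17.36 and 16.6 (-0.4, adjusted p = 0.796). Os01g0348900, the jacalin-related lectin of the salt list, had one probe at 11.81 and 11.74 against 1.5 and 1.52 (at least 715-fold higher), while its other 4 probes were bright on every array and differed by 0.3 to 1.58 (adjusted p of 0.576 to 0.99). A dark probe at these loci did not mean a dark locus. Of 368 loci that had a called probe on in Banikat-labelled arrays only and several probes, 134 had another probe well above background on all 4 arrays, and at 116 of these no such other probe was called higher.

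Fewer probes were lower in Banikat-labelled seedlings, and more of them were measured in both. The largest lower difference among annotated loci measured on all 4 arrays was at Os10g0188100, of the family of the alpha subunit of transcription initiation factor IIF, with 3.55 and 3.21 in Banikat-labelled arrays against 9.99 and 9.73 in Nipponbare-labelled arrays (-6.48 ± 0.31, adjusted p = 3.03e-14). Another of its 3 probes went the other way, with 9.83 and 9.55 against 1.95 and 2.58 (7.42, adjusted p = 5.28e-05), and the third differed by -0.51 (adjusted p = 0.959). Probes of this 1 locus were thus called in opposite directions.

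At other loci the probes moved together or stood alone. Os03g0762000, the alpha (catalytic) subunit of casein kinase II, had 8.36 and 9.23 in Banikat-labelled arrays against 13.09 and 13.08 in Nipponbare-labelled arrays, a difference of -4.29 ± 0.33 (adjusted p = 3.4e-10). Its second probe differed by -4.19. At 0 mM the difference was -3.14 (adjusted p = 9.87e-08), and in replicate 3 the arrays had 12.72 (Banikat-labelled) and 8.67 (Nipponbare-labelled). Os03g0227900, with a protein kinase domain, was called at both treatments as well, with 6.08 and 4.19 against 9.25 and 9.41 at 120 mM (-4.2 ± 0.59, adjusted p = 1.32e-05) and -4.98 at 0 mM.

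At 4 of the loci called lower, the Nipponbare-labelled arrays stood well apart from each other. Os05g0381400, PM 19, an abscisic acid induced membrane protein, had 5.68 and 2.43 in Banikat-labelled arrays against 11.94 and 5.81 in Nipponbare-labelled arrays, with replicate 1 the higher (-4.82 ± 1.4, adjusted p = 0.0318). Os05g0550600, a nonspecific lipid transfer protein, had 3.91 and 3.22 against 10.06 and 6.3 (-4.62 ± 0.91, adjusted p = 0.000935). Os08g0518800, a chitinase, which cuts the chitin of fungal walls, had 5.36 and 5.09 against 10.85 and 8.38. Os03g0188100, a MatE family transporter, had 2.37 and 3.6 against 8.6 and 6.86. In the salt list, too, Nipponbare-labelled replicate 1 stood above replicate 2 at 120 mM, for the dehydrin Os11g0454300 at 13.52 against 7.06. At 0 mM none of these 4 loci passed the test, with differences of the same sign (-1.62, -3.23, -1.97 and -2.54 for PM 19, the MatE transporter, the lipid transfer protein and the chitinase; adjusted p of 0.177 to 0.656), and the difference between the treatments was not called for any of them (adjusted p = 1). Without Nipponbare-labelled replicate 1, all 4 lost their call, with differences of -1.75 for PM 19, -2.73 for the lipid transfer protein, -3.16 for the chitinase and -3.88 for the MatE transporter (adjusted p of 0.122 to 0.853). The MatE transporter lost it without any 1 of the 4 arrays (adjusted p of 0.0632 to 0.362), PM 19 also without Banikat-labelled replicate 2 (0.439) and the chitinase likewise (0.0693). Over all probes, without Nipponbare-labelled replicate 1, 1990 probes were called at 120 mM, of which 1899 were among the 3158 with the same direction.

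Os01g0731600, a pathogen-related protein, had 4.66 and 5.26 in Banikat-labelled arrays against 9.47 and 9.01 in Nipponbare-labelled arrays (-4.28 ± 0.81, adjusted p = 0.000649), and at 0 mM -0.36 (adjusted p = 0.94). The test of the difference between these 2 values was not passed (adjusted p = 0.424). Its signals at 0 mM were 8.58 and 7.99 in Banikat-labelled arrays against 8.44 and 8.85 in Nipponbare-labelled arrays. In replicates 1 and 2 the Banikat-labelled arrays at 120 mM were thus the lowest. In replicate 3 they were not, with 7.87 (Banikat-labelled) and 6.25 (Nipponbare-labelled) at 120 mM, and 8.94 and 6.97 at 0 mM.

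Among probes on in Nipponbare-labelled arrays only, Os10g0525800, glutathione transferase GSTU31, of the enzymes that couple glutathione to toxic compounds, had 2.07 and 1.73 in Banikat-labelled arrays against 10.14 and 7.24 in Nipponbare-labelled arrays, at least 100-fold lower in Banikat-labelled arrays (adjusted p = 0.00266, and 0.114 without Nipponbare-labelled replicate 1). Os04g0206500, a glycosyltransferase that takes UDP sugars, had 1.35 and 2.07 against 7.96 and 8.52, at least 77.1-fold lower. Os09g0562400, with a SWIM zinc finger, had 2.17 and 2.18 against 7.88 and 7.59. It was 47.2-fold lower by its own signals, which lay above the lowest signal well above background. LRK33 (Os01g0114700) was at least 21.8-fold lower, and Os12g0485900, of the disease resistance protein family, at least 21.3-fold lower. In replicate 3 these 5 loci had 5.69 to 9.07 in the Banikat-labelled array and 1.23 to 2.1 in the Nipponbare-labelled array.

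**Figure D5:**
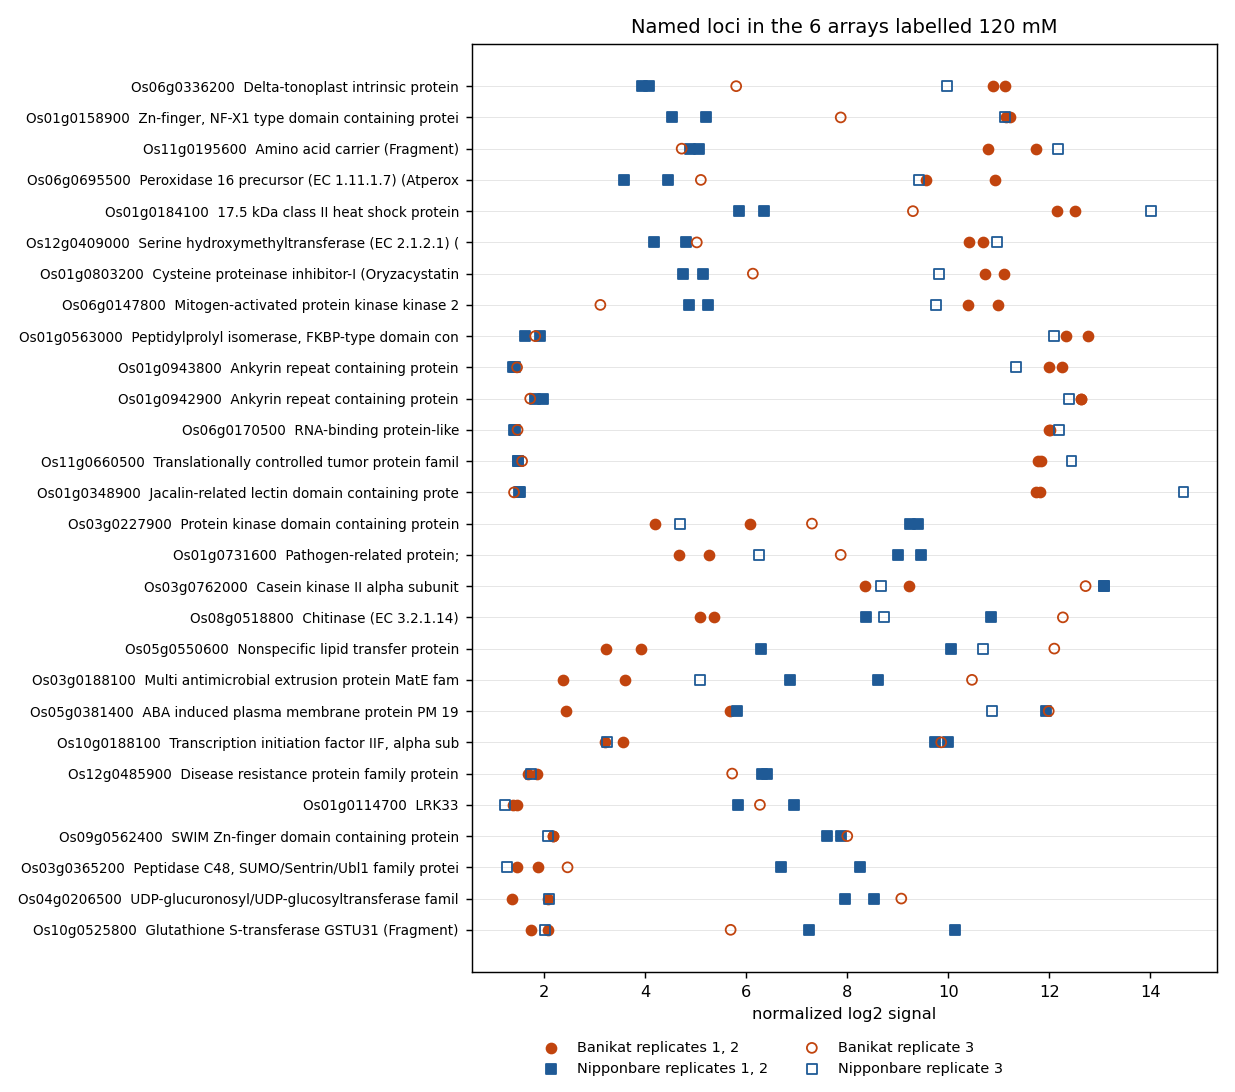
Normalized log2 signal (x axis) of the 28 loci named for the size of their difference, one row per locus, in the 6 arrays labelled 120 mM (filled symbols for replicates 1 and 2, open for replicate 3, circles for Banikat, squares for Nipponbare). In each row the open circle and the open square lie the other way round from the filled ones, so that replicate 3 has the opposite sign at all 28 loci. For Os03g0365200 both open symbols lie at the floor of the arrays.

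The functions tied to salt tolerance, taken as lists of loci with the brightest probe for each, held 106 measured loci, of which 5 were called (4.72%). Of all loci 7.78% were called, 5.27% higher and 2.51% lower. By list the share ran from 0% to 12.5%, each over 16 loci or fewer, and no difference from the share of all loci was tested. None of 15 loci for sodium transport passed the test. Their median difference was -0.38 (all loci -0.21). Some lay near background: Os06g0318500 was not well above it on any of these arrays. Os01g0307500 was so on 1 Banikat-labelled array only, with 4.38 and 2.13 in Banikat-labelled arrays against 3.07 and 4.2 in Nipponbare-labelled arrays. Os06g0701700, an HKT-type sodium transporter, had 6.79 and 5.72 in Banikat-labelled arrays against 5.66 and 4.21 in Nipponbare-labelled arrays (1.32, adjusted p = 0.708), and HKT1 (Os01g0532600) had 3.07 and 5.5 against 3.52 and 6.27 (-0.61, adjusted p = 0.96). Os12g0641100, of the sodium/hydrogen exchanger family, had 11.1 and 11.42 against 11.2 and 11.6 (-0.14, adjusted p = 0.955). Replicates differed from each other by more than the titles did for HKT1.

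None of 15 aquaporins passed on the brightest probe (median -0.55). Os02g0823100, a plasma membrane intrinsic protein, had 11.32 and 11.22 in Banikat-labelled arrays against 13.4 and 13.73 in Nipponbare-labelled arrays, but its difference of -2.29 had an adjusted p of 0.14. Of 9 potassium transport loci measured, 1 was higher, Os01g0930400, with 8.48 and 6.43 in Banikat-labelled arrays against 3.31 and 4.54 in Nipponbare-labelled arrays (adjusted p = 0.0044). Of the other loci of this list, Os04g0401700, potassium transporter 5, had 11.93 and 11.62 against 12.03 and 10.84 (0.34, adjusted p = 0.948).

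None of the 8 loci of the dehydrin and LEA list passed the test between the titles at 120 mM on the brightest probe. Their median difference of -1.38 goes with the high Nipponbare-labelled replicate 1. A dimmer probe of the lectin of this list, Os01g0348900, was called higher, as given above. Of 16 loci for synthesis and breakdown of abscisic acid and its protein phosphatases 2C, which hold back the hormone's signal, 1 was lower: protein phosphatase 2C 30 (Os03g0268600), with 9.12 and 8.22 in Banikat-labelled arrays against 11.53 and 12.28 in Nipponbare-labelled arrays (-3.23 ± 0.97, adjusted p = 0.0377). This call was lost on leaving out any 1 of the 4 arrays (adjusted p of 0.0857 to 0.272). Os03g0645900, a 9-cis-epoxycarotenoid dioxygenase of the committed step of abscisic acid synthesis, had 9.31 and 9.04 against 10.73 and 10.26 (-1.32, adjusted p = 0.24).

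None of 6 loci for synthesis of proline and betaine and none of 11 for jasmonate synthesis and its JAZ repressors passed. Delta 1-pyrroline-5-carboxylate synthetase (Os05g0455500), which makes the precursor of proline, had 11.8 and 11.49 in Banikat-labelled arrays against 12.17 and 11.67 in Nipponbare-labelled arrays (-0.28, adjusted p = 0.896). Of 16 antioxidant enzymes, 2 were higher, Os12g0178200 with 4.77 and 4.57 against 1.66 and 2.48, and Os05g0323900 with 14.34 and 14.27 against 12.49 and 11.97. Catalase isozyme A (Os02g0115700), which removes hydrogen peroxide, had 16.38 and 16.25 against 16.69 and 16.62 (-0.34, adjusted p = 0.955). Of 10 loci in the diterpenoid phytoalexin clusters, 1 was higher: Os04g0179200, a dehydrogenase, had 9.97 and 7.94 against 1.64 and 1.8, at least 101-fold higher (adjusted p = 3.55e-05).

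Families defined by their annotation are set beside the 6.08% of annotated loci called higher and 2.6% lower, or 8.68% in either direction. In 4 of the 12 families 17.5% to 28.8% of loci were called, and in the other 8 from 0% to 14.3%. These counts describe loci that the study itself drew from these arrays and are not independent evidence. Of 59 resistance proteins of the NBS-LRR kind, the intracellular receptors with which plants detect pathogens, 13 were higher and 4 lower. Os11g0588600 of this family had 11.47 and 11.45 in Banikat-labelled arrays against 1.5 and 1.89 in Nipponbare-labelled arrays, at least 576-fold higher (adjusted p = 2.52e-09), and Os08g0260800 had 1.32 and 1.3 against 4.21 and 4.6, at least 5.5-fold lower. In 12 of the 59 the brightest probe was on in Banikat-labelled arrays only, and in 2 in Nipponbare-labelled arrays only.

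Of 26 transposon-related proteins 6 were higher and 0 lower, among them Os08g0106900, a transposase with 10.04 and 10.46 in Banikat-labelled arrays against 1.22 and 1.22 in Nipponbare-labelled arrays (at least 249-fold higher). Of 37 cytochromes P450, oxidising enzymes of hormone and defence metabolism, 7 were higher and 3 lower. Os11g0465200 was on in Banikat-labelled arrays only, with 10.72 and 10.45 against 1.4 and 1.42. Os06g0497200 was on in Nipponbare-labelled arrays only, with 1.57 and 1.74 in Banikat-labelled arrays against 5.71 and 5.64 in Nipponbare-labelled arrays. Of 63 F-box proteins, which choose targets for ubiquitination, 11 were higher and 0 lower.

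The other 8 families had fewer calls. Of 43 receptor-like kinases 5 were higher, of 25 WRKY factors 3, of 47 ribosomal proteins 4 and of 33 heat shock proteins and factors 2, with 0 lower in each. Of 62 peroxidases 2 were higher and 2 lower, and of 14 glutathione transferases 0 were higher and 2 lower. None of 12 NAC factors and none of 3 light-harvesting proteins was called. The 4 ribosomal proteins were bright on all 4 arrays and their differences were small, from 1.81 to 2.2, as for Os05g0486700 of the L24E family with 13.72 and 13.58 in Banikat-labelled arrays against 11.69 and 11.21 in Nipponbare-labelled arrays.

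The called probes were spread over all 12 chromosomes by their locus names, unevenly for those called higher. Their share ran from 3.28% of the probes on chromosome 3 to 7.49% on chromosome 12 and 8.17% on chromosome 11, and the share called lower from 1.65% on chromosome 9 to 2.94% on chromosome 10. In 587 windows of 50 neighbouring loci the median number of loci with a called probe was 4, and 24 windows had 0. The 3 fullest, chosen after their values were seen, held 14 or 15. On chromosome 12, between Os12g0211400 and Os12g0228700, 14 loci were higher and 1 lower. There 2 allyl alcohol dehydrogenases were among those dark in Nipponbare-labelled arrays, with 7.16 and 7.59 in Banikat-labelled arrays against 1.4 and 1.44 in Nipponbare-labelled arrays for Os12g0226700.

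On chromosome 11, between Os11g0678000 and Os11g0692300, 13 loci were higher and 1 lower. The higher ones included WRKY transcription factors 41 (Os11g0685600) and 61 (Os11g0685700), DNA-binding proteins of defence responses, with 4.72 and 5.13 in Banikat-labelled arrays against 1.38 and 1.38 in Nipponbare-labelled arrays for the first and 4.88 and 4.76 against 1.44 and 1.56 for the second. A disease resistance family protein (Os11g0687800) was called on both probes, 3.76 and 4.33 higher. The lower one was Os11g0678200, with a DOMON domain, at 1.97 and 2.84 against 9.96 and 8.84. The window on chromosome 4, from Os04g0368000 to Os04g0381100, held 13 higher loci and 1 lower, with Os04g0370900, which has a protein kinase domain, among the higher.

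The difference between titles was then compared between the 2 labelled treatments, which asks where the effect of the treatment label depended on the title. It was called at 74 of 42476 probes (0.174%; 1498 at an unadjusted p under 0.05), at 35 (0.0824%) with a larger Banikat-minus-Nipponbare difference at 120 mM and at 39 (0.0918%) with a smaller one. Of the 3158 probes called at 120 mM, 43 were among them. In 16 of the 74, both Nipponbare-labelled arrays at 120 mM were on and both at 0 mM were dark, and in 13 the reverse held. For Banikat-labelled arrays these numbers were 6 and 6. These 74 were picked by the test of that very contrast. Over all probes, called or not, 194 were on in Nipponbare-labelled arrays at 120 mM and dark at 0 mM, and 488 the reverse. For Banikat-labelled arrays these numbers were 511 and 268. Seedlings of 1 title thus differed in which probes gave any signal.

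Os12g0514000, a sugar transporter, had 11.75 and 11.47 in Banikat-labelled arrays against 1.34 and 1.35 in Nipponbare-labelled arrays at 120 mM (at least 638-fold higher, adjusted p = 3e-07). At 0 mM it had 9.98 and 9.61 in Banikat-labelled arrays against 9.8 and 9.28 in Nipponbare-labelled arrays. Both of its probes were called higher at 120 mM. Os12g0502800, an allantoin permease, carrier of a nitrogen-rich purine product, showed the reverse on 1 of its 4 probes. That probe had 10.3 and 9.48 against 11.09 and 9.94 at 120 mM, and 11.19 and 11.69 against 1.38 and 1.39 at 0 mM. The other 3 were not called at 0 mM, with differences of 0.37, 0.37 and 1.81 (adjusted p of 0.311 to 0.941). Os12g0278700, a cystinosin homolog, behaved likewise on 1 of its 2 probes, with 10.87 and 10.71 against 9.21 and 10.4 at 120 mM, and 10.56 and 10.87 against 1.63 and 1.51 at 0 mM, while its second probe differed by -1 there (adjusted p = 0.576). Of these 3 loci, only the sugar transporter had all its probes dark in 1 pair of Nipponbare-labelled arrays. In replicate 3 its first probe had 1.39 (Banikat-labelled) and 10.9 (Nipponbare-labelled) at 120 mM, and 1.39 and 8.92 at 0 mM. The permease's probe had 11.03 and 10.79, then 11.54 and 11.32. The cystinosin homolog's probe had 2.28 and 10.85, then 2.96 and 10.6. Within a title, none of these probes was bright at 1 treatment and dark at the other in replicate 3.

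Os03g0365200, a C48 peptidase of the kind that removes SUMO tags, had 1 of its 2 probes on in Nipponbare-labelled arrays at 120 mM alone. That probe had 1.45 and 1.87 in Banikat-labelled arrays against 6.68 and 8.25 in Nipponbare-labelled arrays there (at least 45.9-fold lower, adjusted p = 3.57e-09), and 1.29 and 1.24 against 1.27 and 1.26 at 0 mM. The other probe was not well above background in either Nipponbare-labelled array at 120 mM and differed by 0.19 (adjusted p = 0.99). Os11g0303800, a homeodomain-like protein, had 10.79 and 11.76 in Banikat-labelled arrays against 3.89 and 1.82 in Nipponbare-labelled arrays at 0 mM. At 120 mM it had 2.91 and 3.6 against 2 and 1.98, and was still well above background in both Banikat-labelled arrays. In replicate 3 it had 2.06 (Banikat-labelled) and 8.56 (Nipponbare-labelled) at 120 mM, and 2.38 and 1.87 at 0 mM. Os11g0507200, of the transferase family, had 11.1 and 10.73 against 7 and 5.35 at 120 mM, and 9.7 and 10.76 against 11.01 and 11.72 at 0 mM.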

How the data were processed

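For each array, the authors deposited the intensity of every spot as the scanner software wrote it (Agilent Feature Extraction 10.7.3.1, one colour, background-subtracted), and for the series a table of log2 values, by the methods quantile-normalized. From the deposited intensities, log2 signals were quantile-normalized over 43734 spots that are not controls, outlier spots (0.146%) were left out and spots of 1 probe averaged. Titles gave the groups. Differences were fitted with limma 3.58.1 (R 4.3.3) on 38 arrays in 16 groups, without the 8 arrays that lay nearest to another genotype than their title, so 2 arrays entered for each title and treatment. P-values were adjusted over all probes. The fit was tested on simulated data with changes put into the Banikat 120 mM group. It called 16 of 50 probes changed by -2 on the log2 scale and 23 of 50 changed by 2. Of those changed by -4 and 4 it called 36 of 50 and 40 of 50. A locus that did not pass is therefore not shown to be without a difference. Members, lists and naming rules were chosen with earlier results of these data known. Named were annotated loci called with groups that do not overlap, by their largest differences: 8 per direction among probes measured on all 4 arrays, 6 per direction among probes on for 1 title only, up to 4 per direction for the difference between treatments (3 and 4 found) and up to 4 per locus list. Other loci were named after their values were seen. Gene names come from the study's tables, and sequences were not used here. Alternatives were other scalings, normexp (offset 50), the authors' table, a filter on dim probes, blocks, other sets of arrays and leaving out each replicate. The number of arrays limits the precision. The replicate 3 values alone were added after the data had been seen.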

Additional observations from a re-analysis of the deposited data

Results flagged for a closer look

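The effect of the treatment label differed between the titles, by limma's test of the difference of differences, at 74 probes, and 7 annotated loci among them are singled out. The value given is the Banikat-minus-Nipponbare difference at 120 mM minus that at 0 mM, on the log2 scale, each from 2 arrays per title and treatment. It was 10.01 for the sugar transporter Os12g0514000 (adjusted p = 0.00272), 5.88 for the transferase Os11g0507200 (adjusted p = 0.0427) and 3.13 for the FKBP-type isomerase Os01g0563000 (adjusted p = 0.0456). It was -10.69 for the allantoin permease Os12g0502800 (adjusted p = 4.92e-07), -8.16 for the cystinosin homolog Os12g0278700 (adjusted p = 1.98e-06), -7.15 for the homeodomain-like Os11g0303800 (adjusted p = 0.00272) and -5.81 for the C48 peptidase Os03g0365200 (adjusted p = 4.75e-05). In these arrays the dehydrin and LEA list went against the treatment titles, so the sign of each is that of the titles only. In replicate 3 the probes of Os12g0514000, Os12g0502800 and Os12g0278700 did not turn from bright to dark between the treatments under either title. Those of Os11g0303800 and Os01g0563000 did under the Nipponbare title, with 8.56 and 12.09 at 120 mM against 1.87 and 2.02 at 0 mM. The 0 mM array there lay nearest to IR 58. Under the Banikat title both were dark at both treatments. Os03g0365200 had 1.21 to 2.46 and Os11g0507200 had 6.99 to 11.33 over the replicate 3 arrays. The calls for Os11g0507200, Os01g0563000, Os11g0303800 and Os12g0514000 were lost on leaving out Banikat-labelled replicate 2 (adjusted p of 0.182, 1, 0.0599 and 0.0605). Nipponbare-labelled replicate 1 ended those of Os11g0507200 (0.0671), Os01g0563000 (0.444) and Os12g0514000 (0.0671), Nipponbare-labelled replicate 2 those of Os11g0507200 (0.707), Os01g0563000 (0.288) and Os11g0303800 (0.127), and Banikat-labelled replicate 1 that of Os11g0507200 (0.198). With the 8 Banikat-labelled and Nipponbare-labelled arrays alone, the calls of Os11g0507200 (0.188), Os01g0563000 (0.65), Os11g0303800 (0.146) and Os03g0365200 (0.0997) were lost. Without the wild species those of Os11g0507200 (0.0677) and Os01g0563000 (0.0553) were lost, and with 75th percentile scaling those of Os01g0563000 (1), Os11g0303800 (0.19) and Os03g0365200 (0.0542). Os11g0507200 also lost its call with the authors' log2 values (0.0541) and the slide block (0.0507), and Os01g0563000 with the slide block (0.128) and the scan day block (0.0924).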

How the results depend on the processing

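With all 46 arrays under their titles, limma called 0 probes at 120 mM (317 at an unadjusted p under 0.05), 19 at 0 mM and 0 for the difference between treatments (456 at an unadjusted p under 0.05), and the isomerase Os01g0563000 turned to -1.47. Other settings that kept all replicates left the counts at 120 and 0 mM within 1.5 times. The difference between treatments was called at 43 probes with the 8 Banikat-labelled and Nipponbare-labelled arrays alone, 137 without the wild species, 49 with 75th percentile scaling and 116 with normexp. Leaving out 1 replicate gave 1990 to 2396 probes at 120 mM, 2386 to 4658 at 0 mM and 48 to 199 for the difference between treatments, where the lone array is taken to vary like the other groups. Of these, the count at 120 mM moved past 1.5 times without Nipponbare-labelled replicate 1 (1990), that at 0 mM without Banikat-labelled replicate 2 (2597) or Nipponbare-labelled replicate 1 (2589) or 2 (2386), and that between treatments without Banikat-labelled replicate 1 (199) or 2 (48). Under the replicate block these counts were 3356, 4425 and 73, and 2 named loci lost the call between treatments, Os11g0507200 (adjusted p = 0.0647) and Os01g0563000 (adjusted p = 0.0658). Arrays of the same number share a slide and its scan day, and their deviations correlated at 0.21 at 120 mM and -0.111 at 0 mM. Of 37 results on named loci, 30 to 37 kept their call under the settings with all of replicates 1 and 2 and without replicate 3, and 28 to 34 on leaving out 1 replicate. Among the calls at 120 mM, PM 19 (Os05g0381400) lost its call with 75th percentile scaling (adjusted p = 0.0788), normexp (0.217), the 8 arrays alone (0.263) and without the wild species (0.0508). The lipid transfer protein Os05g0550600 lost it with the 8 arrays alone (0.0623), the chitinase Os08g0518800 there (0.066) and with 75th percentile scaling (0.0503), the MatE transporter Os03g0188100 (0.279) and the glutathione transferase Os10g0525800 (0.0702) with normexp, and protein phosphatase 2C 30 (Os03g0268600) without the wild species (0.0596), with 75th percentile scaling (0.0687) and with normexp (0.0687). With 2 arrays per group and dark probes at the floor, small differences and their size below background were not measurable.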
